A study of Mus musculus with 4 samples.

Results

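Lymphotoxin beta (Ltb) and 8 other genes of the TNF family and of T-cell costimulation were followed across single thymocytes of wild type and Tal1/Lmo2 transgenic mice. The 9 genes, taken by name from 31053 in the count matrices, were the ligands Ltb, Lta and Tnf, the TNF receptors Cd27, Tnfrsf4 (OX40), Tnfrsf9 (4-1BB) and Tnfrsf18 (GITR), and the immunoglobulin family receptors Cd28 and Ctla4. Single-cell RNA was measured by 10x Genomics 3′ sequencing in thymi of FVB/N mice, each library from 1 mouse. The WT library came from a wild type thymus at 6 weeks, the preleukemic mouse from a Tal1/Lmo2 transgenic thymus at 6 weeks, and the libraries T-ALL#1 and T-ALL#2 from Tal1/Lmo2 thymi with leukemia at 3 months. The transgenes are driven by the proximal Lck promoter, which is active in thymocytes from an early stage. All cells were viable singlets, sorted by exclusion of 7-AAD after lysis of red cells.

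Ltb and Lta encode the subunits of the membrane lymphotoxin heterotrimer, which signals through the lymphotoxin beta receptor on stromal cells and takes part in organizing the thymic medulla, while Lta and Tnf each also form soluble homotrimers. Cd27, Tnfrsf4, Tnfrsf9 and Tnfrsf18 are receptors on T cells that recruit TRAF adaptors and activate NF-κB, and Tnfrsf4, Tnfrsf9 and Tnfrsf18 are induced by T-cell receptor signals. Cd28 delivers the costimulatory signal from CD80 and CD86, and Ctla4 binds the same ligands as an inhibitory receptor of activated and regulatory T cells.

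Several of these genes are neighbours in the genome (build GRCm38, GENCODE M21 annotation). Ltb (ENSMUSG00000024399) occupies chr17:35194439-35196320 on the plus strand, Tnf (ENSMUSG00000024401) lies 3060 bases beyond it on the minus strand, and Lta (ENSMUSG00000024402) lies a further 1157 bases away, also on the minus strand. Tnfrsf4 and Tnfrsf18 are separated by 9551 bases on chromosome 4, which also carries Tnfrsf9, and Cd28 and Ctla4 by 113640 bases on chromosome 1. Cd27 (ENSMUSG00000030336) lies at chr6:125232622-125237010 on the minus strand. The upstream sequences of Ltb and Cd27 are shown because these 2 abundant members were lower in cycling cells of every library (below), while differing in the motifs found. They run from 130 bases before the RefSeq start to the nearest GENCODE exon or to that start (GRCm38.p6, RefSeq), at chr17:35194377-35194438 on the plus strand and chr6:125237028-125237157 on the minus strand. Capitals mark a match to the κB motif.
Ltb: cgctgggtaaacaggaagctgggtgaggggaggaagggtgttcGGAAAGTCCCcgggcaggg
Cd27: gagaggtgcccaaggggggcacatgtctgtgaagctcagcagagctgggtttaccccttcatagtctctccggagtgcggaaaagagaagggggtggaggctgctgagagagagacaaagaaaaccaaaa

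The 250 bases before the start were read on both strands for 6 motifs. These were κB (GGG, any 2 bases and TTTCC), AP-1 (TGANTCA), an E-box with GC at its centre (CAGCTG), an E-box with GG there (CAGGTG), the RUNX motif (TGTGGT) and the GATA motif (AGATAA). Windows were found for 8 of the 9 members. The κB letters, present in 1.41% of 32851 windows of the same length, stood 87 bases before the start of Ltb and 43 bases before the second start of Tnfrsf9, and in no other member window. AP-1 (6.75% of windows) was found only in that second window of Tnfrsf9, which overlaps an annotated exon. CAGGTG (17.2% of windows) was found before Ltb, Ctla4 and Tnfrsf18, and CAGCTG (13.0%) before Lta and Tnfrsf9. None of the 6 motifs was found before Cd27, Tnf or Tnfrsf4, and neither RUNX (14.0%) nor GATA (9.99%) before any member. The CAGCTG nearest the second start of Tnfrsf9 shares letters with its κB match. These matches are descriptions of letters and not measured binding sites.

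Kept cells numbered 4220 in WT, 5576 in the preleukemic mouse, 5773 in T-ALL#1 and 1975 in T-ALL#2, with median depths of 3800.5, 4888, 8742 and 17581 UMIs (unique molecular identifiers, each counting 1 captured transcript). Pairs of libraries shared between 0 and 9 cell barcodes. The transgene reads followed the labels, with 0 UMIs of Tal1 in WT (an upper 95% limit of 0.153 CPM) and 68.3 to 410 CPM in the 3 transgenic libraries. Xist was at 1380 and 1869 CPM in the WT and preleukemic libraries, both labelled male, so their sex labels did not match. Markers of T cells (Cd3e, Cd3d, Cd3g, Lck and Thy1) were all detected in each library, with summed levels of 2604 to 4263 CPM. Age and leukemia cannot be told apart, nor can the chemistry version, which the labels do not assign to libraries.

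Levels in whole libraries were compared first, to see how the 9 genes stood in normal, preleukemic and leukemic thymus. Levels are CPM, the UMIs of a gene scaled to the same total of UMIs in every library or class of cells, with exact Poisson 95% intervals that cover counting error only, as do all intervals below. With 1 WT and 1 preleukemic animal no test between groups was made. Ltb stood at 439 CPM in WT, 240 CPM in the preleukemic mouse, 95.2 CPM in T-ALL#1 and 86.6 CPM in T-ALL#2. None of the intervals overlapped, the leukemic ones being 92.9 to 97.5 and 83.6 to 89.7. The WT level was the highest and both leukemic levels the lowest, 4.61-fold and 5.07-fold below WT and 2.52-fold and 2.77-fold below the preleukemic mouse. The leukemias differed from each other by far less than from either younger mouse.

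The receptors Cd27 and Cd28 were the other abundant members. Cd27 measured 383 CPM in WT, 306 CPM in the preleukemic mouse, 240 CPM in T-ALL#1 and 126 CPM in T-ALL#2, so that no intervals overlapped and WT was the highest. Cd28 measured 308, 136, 141 and 84.2 CPM in the same order. The preleukemic library and T-ALL#1 thus held nearly equal shares of Cd28, with a ratio of 1.04 (1.01 to 1.07), although both lay more than 2-fold below WT.

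Of the activation-induced receptors, Tnfrsf4 and Tnfrsf9 lay furthest below WT by fold among the 9 genes. Tnfrsf4 stood at 37.3 CPM in WT against 2.91, 1.09 and 1.16 CPM in the preleukemic mouse, T-ALL#1 and T-ALL#2, or 12.8-fold, 34.3-fold and 32.2-fold lower. Tnfrsf9 stood at 16.4 CPM in WT and 1.40 CPM in the preleukemic mouse, while T-ALL#1 held 11 UMIs in all (0.155 CPM) and T-ALL#2 held 12 (0.331 CPM). Tnfrsf18 was more widely retained, at 70.5, 26.9, 13.4 and 16.9 CPM. For these receptors the transgenic mice lay below WT without overlap, and for Tnfrsf4 the 2 leukemias could not be distinguished within their intervals.

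Lta followed Ltb, with 8.98 CPM in WT, 2.64 CPM in the preleukemic mouse, 1.20 CPM in T-ALL#1 and 0.662 CPM in T-ALL#2. Tnf did not follow this order. It measured 6.20 CPM in WT, 1.86 CPM in the preleukemic mouse, 3.00 CPM in T-ALL#1 and 3.15 CPM in T-ALL#2, so both leukemias lay above the preleukemic mouse, 1.61-fold (1.23 to 2.12) and 1.69-fold (1.25 to 2.29), and below WT. Ctla4 was the exception among receptors, with 10.5 CPM in WT and 12.4 CPM in the preleukemic mouse against 5.50 and 3.26 CPM in the leukemias. The preleukemic to WT ratio of Ctla4 (1.18) was 0.994 with all cells weighted equally and 0.783 in cells thinned to 2000 UMIs, so its direction depended on the weighting.

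**Figure D1:**
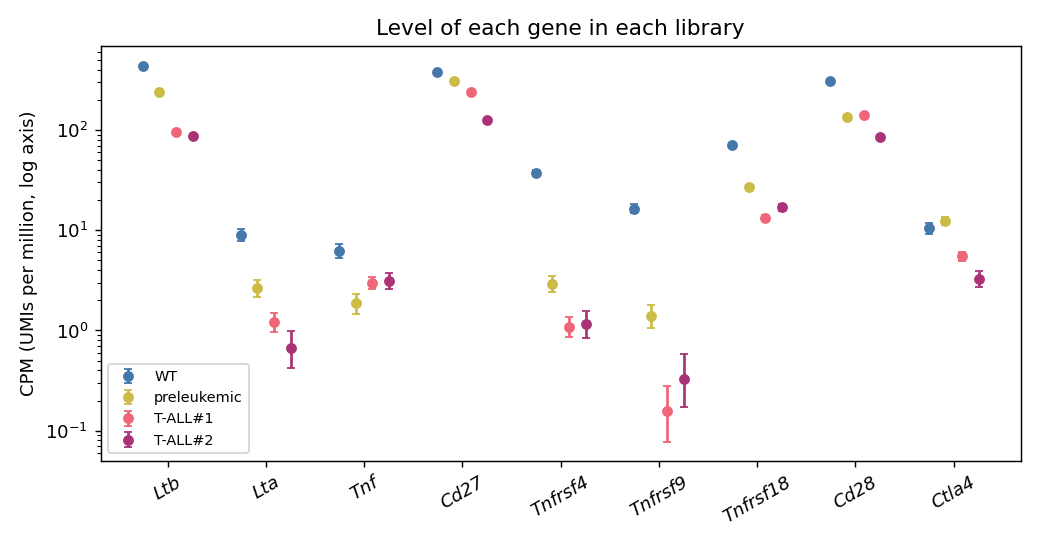
CPM of each of the 9 genes (log axis) in WT, the preleukemic mouse, T-ALL#1 and T-ALL#2, with exact Poisson 95% intervals (counting error only). WT is the highest library for every gene except Ctla4, and Ltb lies at 439 CPM in WT and 86.6 CPM in T-ALL#2.

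In counts of 2-fold differences over all 9 genes, 6 were lower in the preleukemic mouse than in WT, 7 in T-ALL#1 and 8 in T-ALL#2, and 0 were higher in any of these. Among genes of at least 10 CPM in either library, where 7 of the 9 members could be compared, 4, 5 and 7 were lower, against 4.88%, 12.9% and 30.3% of all 8284 to 8417 such genes. For the share higher by 2-fold, the values over all genes were 4.46%, 4.72% and 5.2%, and 0 members were higher. These 3 comparisons share the WT library. Against the preleukemic mouse, 6 members were lower in T-ALL#1 and 6 in T-ALL#2, with 3 of 5 members past 10 CPM in each, where all genes gave 11.8% and 27.1%. The counts over the 9 members were 3 in each leukemia with the TMM scaling below, with cells weighted equally and after thinning. None was 2-fold higher there, where all genes gave 4.68% and 3.96%, although Tnf in T-ALL#2 was 2.39-fold higher after the TMM scaling below. TMM factors, which scale libraries by a trimmed mean of their log ratios over genes, moved every ratio to WT up by 0.31 (T-ALL#1) and 0.55 (T-ALL#2) on the log2 scale, and to the preleukemic mouse by 0.26 and 0.50. On that scale Ltb was 3.72-fold and 3.46-fold below WT, Cd27 1.29-fold and 2.07-fold, and Cd28 1.77-fold and 2.49-fold, all in the same direction.

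Per cell the picture differed by gene, and cells of the leukemic libraries held more UMIs. Cells of T-ALL#2 were taken only at 3416 UMIs or more, a limit that 2306 of the 4220 WT cells reached. Per-cell averages and raw shares of T-ALL#2 are therefore not on equal terms with those of the other libraries. Ltb averaged 2.50 UMIs per cell in WT, 1.76 in the preleukemic mouse, 1.17 in T-ALL#1 and 1.59 in T-ALL#2, and was lowest in the leukemias on this scale too. Cd27 averaged 2.18, 2.24, 2.94 and 2.32 UMIs per cell, with WT the lowest, and Cd28 averaged 1.76, 0.993, 1.73 and 1.55, with the preleukemic mouse the lowest. The share of cells with at least 1 UMI of Ltb was 60.4% in WT, 62.3% in the preleukemic mouse, 52.7% in T-ALL#1 and 59.9% in T-ALL#2. After thinning each cell to 2000 UMIs the shares were 50.5%, 39.1%, 23.2% and 21.3%, over 3229, 5226, 5679 and 1975 cells, in the order of the CPM values. For Cd27, the raw shares of 79.1%, 77.4%, 86.5% and 81.2% became 58.4%, 48.2%, 44.2% and 24.5%. The 9 WT cells with at least 3 of 6 myeloid markers held 298 CPM of Ltb and 81.3 CPM of Cd27. In the preleukemic mouse 8 such cells held 173 CPM of Ltb (63.4 to 376), from 6 UMIs in 1 cell. In T-ALL#1 4 such cells held 133 CPM (36.4 to 342), and in T-ALL#2 4 held 0 UMIs (upper limit 107 CPM). Droplets of T-ALL#2 holding 10 to 100 UMIs held 49.7 CPM of Ltb (6.01 to 179) and 149 CPM of Cd27 (54.7 to 324), from 2 and 6 UMIs. These intervals contain the levels in T-ALL#2 cells, so they set no background level.

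Genes next to the members in the same pathways were read from lists. Of 24 TNF receptor and NF-κB signalling genes, all past 10 CPM in WT, 5 were 2-fold lower in the preleukemic mouse than in WT, 6 in T-ALL#1 and 12 in T-ALL#2, and 0 were higher. The median log2 ratios of this list were -0.44, -0.63 and -0.93, beside -0.03, -0.18 and -0.54 over all genes compared. Of 21 other TNF receptors, 6 or 7 could be compared with WT. Of these, 3 were 2-fold lower in the preleukemic mouse, 5 in T-ALL#1 and 5 in T-ALL#2. They included Fas, a death receptor, at 81.6 CPM in WT against 19.5, 9.97 and 2.95 CPM, while Tnfrsf8 (CD30) alone was 2-fold higher in both leukemias (13.5 and 13.0 CPM against 2.70 CPM in WT). Among 14 other TNF ligands, Cd40lg (19.5 CPM in WT) was 2-fold lower in the 3 transgenic libraries, at 0.465 CPM or less, and Tnfsf10 (TRAIL) was 2-fold higher in the preleukemic mouse than in WT. Of 4 genes of the CD28 family compared, 2 were lower in the preleukemic mouse and 4 in each leukemia, among them Icos (48.7 CPM in WT against 12.2, 3.60 and 1.13 CPM), a costimulatory receptor.

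The makeup of the libraries differed beside these levels. Cells with both Cd4 and Cd8a were 49.7% of WT cells, 3.60% of preleukemic cells, 41.7% in T-ALL#1 and 12.3% in T-ALL#2. Such detection depends on depth, which differed between the libraries. After thinning, both genes were detected in 1025 of 3229 WT cells and 67 of 5226 preleukemic cells. In T-ALL#1 the count was 950 of 5679, and in T-ALL#2 it was 40 of 1975. Cells called cycling (below) were 17.2%, 25.2%, 40.7% and 43.0%. Summed markers of gamma delta T cells measured 240, 1437, 38.9 and 151 CPM, those of NK cells 65.7, 64.0, 7.65 and 1.52 CPM, of B cells 10.7, 16.1, 5.03 and 4.31 CPM, and of myeloid cells 69.7, 10.4, 7.27 and 11.6 CPM. These sums are levels of transcripts and not numbers of cells. By surface staining the study found no gain of gamma delta thymocytes in preleukemic thymus. For preleukemic DN3 progenitors the paper proposes germline transcription of the gamma delta segments. Erythroid markers stood at 82.9 CPM in WT and at most 0.221 CPM elsewhere, stromal markers at 7.11 CPM in WT and 0.469 to 2.40 CPM elsewhere, and dendritic markers at 71.5 to 99.2 CPM. Within low-cycling cells the levels of Ltb were 606, 360, 213 and 168 CPM, and within cycling cells 180, 93.8, 40.6 and 30.2 CPM, the same order as in whole libraries. The part of the other shifts in the library levels was not tested.

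The WT level of 4 members was held in part by very few cells. Foxp3, the defining factor of regulatory T cells, was detected in 49 WT cells (1.16%), with a median depth of 7903 UMIs. These cells held 32.5% (26.8 to 38.7, exact binomial interval) of WT Ctla4 UMIs, 22.6% of Tnfrsf9, 19.4% of Tnfrsf4 and 9.61% of Tnfrsf18. Ctla4 stood at 196 CPM in them, 27.2-fold (20.7 to 35.7) above other WT cells, and the ratios were 16.5 for Tnfrsf9, 13.6 for Tnfrsf4, 6.01 for Tnfrsf18 and 2.59 (2.35 to 2.84) for Ltb. Cd28, by contrast, had a ratio of 0.828 and Cd27 of 1.13. Foxp3 was detected in 15 preleukemic cells, 3 cells of T-ALL#1 and 2 of T-ALL#2, at 0.636, 0.0565 and 0.0552 CPM against 5.03 CPM in WT. Ikzf2, another gene of the regulatory T list, was lowest in WT, at 180 CPM against 820, 339 and 268 CPM.

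**Figure D2:**
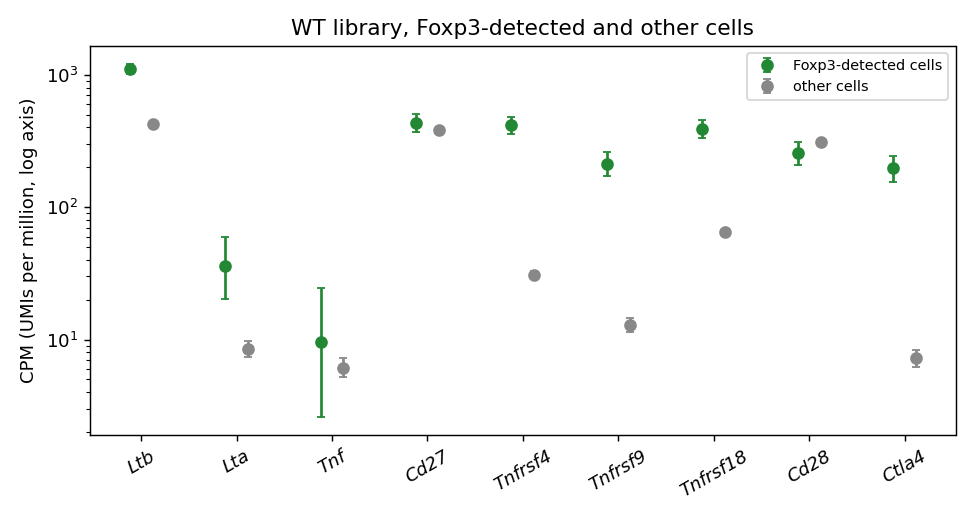
CPM (log axis) of the 9 genes in the 49 WT cells with a UMI of Foxp3 and in the other WT cells, with exact Poisson 95% intervals. Ctla4, Tnfrsf9, Tnfrsf4 and Tnfrsf18 lie 27.2-fold to 6.01-fold higher in the Foxp3-detected cells, and Cd28 and Cd27 lie close together.

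The 1% of WT cells with most UMIs of each gene (43 cells) held 72.2% of the 252 Ctla4 UMIs and 70.3% of the 394 Tnfrsf9 UMIs, against 9.23% of Ltb and 5.10% of Cd27 UMIs. Cd28 was detected in 59.2% of cells in WT, in 45.5% in the preleukemic mouse, and in 67.8% and 69.6% in the leukemias.

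Cells were next divided by detection of the coreceptors Cd4 and Cd8a and of Il2ra, which mark stages of thymocyte development. The aim was to ask where in development each gene stood. Membership of these classes depended on depth. In T-ALL#2 the class without Cd4, Cd8a and Il2ra held 171 cells, and 1079 after thinning. In WT, Ltb measured 154 CPM in 54 cells with Il2ra and neither coreceptor (DN Il2ra+), 262 CPM in 2096 cells with both coreceptors (DP), 551 CPM in cells with Cd8a only and 667 CPM in cells with Cd4 only. The Cd4 only and the remaining double-negative cells (634 CPM) had overlapping intervals, while every other pair of these classes was separated. In the preleukemic mouse the 5 classes spanned 181 to 322 CPM, and in the leukemias 69.6 to 129 CPM and 50.6 to 157 CPM. By fold, WT lay furthest above both leukemias in Cd8a only cells, at 551 CPM against 75.4 and 80.0 CPM. This class held different cells in each library. Il2ra was detected in 30 of 768 WT cells, 1363 of 2065 in T-ALL#1 and 752 of 939 in T-ALL#2. After thinning these counts were 10 of 783, 883 of 1969 and 118 of 406, so part of the difference went with depth. Among Cd8a only cells without Il2ra, Ltb measured 581 CPM in WT against 99.3 CPM in T-ALL#1 and 146 CPM in T-ALL#2.

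DN Il2ra+ cells were the lowest class for Cd28 in WT (60.5 CPM, against 228 CPM in DP and 476 CPM in Cd4 only cells) and in the preleukemic mouse (62.7 CPM). Both leukemias had a higher value of Cd28 in this class than WT did, with T-ALL#1 at 120 CPM (111 to 128). The level of T-ALL#2, 76.2 CPM (71.1 to 81.7), overlapped the WT interval (44.4 to 80.4). Cd27 in DN Il2ra+ cells measured 143, 204, 211 and 109 CPM in the order WT, preleukemic, T-ALL#1 and T-ALL#2, again without the order seen in whole libraries.

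**Figure D3:**
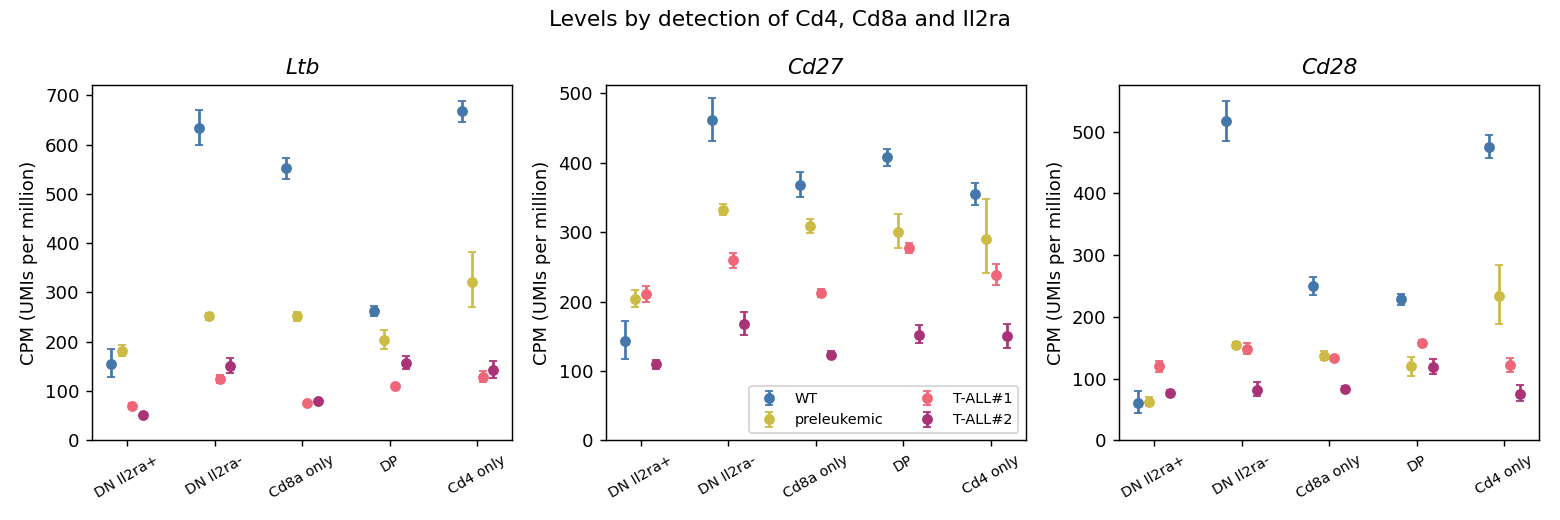
CPM of Ltb, Cd27 and Cd28 in cells grouped by UMIs of Cd4, Cd8a and Il2ra (DN, neither coreceptor; DP, both), with exact Poisson 95% intervals. WT cells lie above the other libraries in most classes, whereas in DN Il2ra+ cells WT is not the highest for any of the 3 genes.

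The DN Il2ra+ cells were compared with the DP cells over the 4 libraries by edgeR's quasi-likelihood test with library as a block. Of 8 members tested, 0 passed an adjusted p of 0.05 in either direction, where 1.15% of 10400 genes were called higher and 1.5% lower. Unadjusted p-values under 0.05 were found for 3 members, Cd28, Cd27 and Ltb, and for 2862 of the 10400 genes. The values of Cd28 were 60.5 against 228 CPM in WT, 62.7 against 120 CPM in the preleukemic mouse, 120 against 157 CPM in T-ALL#1 and 76.2 against 119 CPM in T-ALL#2, a log2 difference of -0.83 (SE 0.235, adjusted p = 0.0881). All 4 libraries had the lower value in DN Il2ra+ cells. Cd27 had a log2 difference of -0.63 (adjusted p = 0.0907) and Ltb of -0.72 (adjusted p = 0.101), both lower in DN Il2ra+ cells of 4 libraries. DESeq2 called these 3 genes lower. Of the lists, Fas (log2 difference -2.35) of 8 other TNF receptors and Nfkbia (-0.85), the inhibitor of NF-κB, were lower, and Siva1 (0.61) was higher, while 0 of 4 other ligands were called.

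Ctla4 stood apart between the classes in the 2 younger mice. It measured 73.3 CPM in DN Il2ra+ cells against 2.17 CPM in DP cells of WT, and 37.7 against 7.97 CPM in the preleukemic mouse. In T-ALL#1 it measured 7.23 against 3.70 CPM and in T-ALL#2 2.54 against 4.75 CPM, and the log2 difference over the 4 libraries, 2.08 (SE 0.985), did not pass (adjusted p = 0.249). Foxp3 was at 21.9 CPM in the WT class and 1.05 CPM in the preleukemic class. Without Foxp3-detected cells the log2 difference of Ctla4 was 2.07 (adjusted p = 0.251).

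Division, which thymocytes leave and enter between stages, was followed with a list of 97 cell-cycle genes (43 for S phase and 54 for G2/M). Cells above 72.9 UMIs of the list per 10000, a value set by a 2-means split of the leukemic DN3-gated cells described below, were called cycling, and the others low-cycling. Ltb measured 180 CPM in cycling against 606 CPM in low-cycling cells of WT, 93.8 against 360 CPM in the preleukemic mouse, 40.6 against 213 CPM in T-ALL#1 and 30.2 against 168 CPM in T-ALL#2. Cycling cells were lower in 4 of 4 libraries, by 3.36-fold to 5.56-fold. The log2 difference was -1.95 (SE 0.161, adjusted p = 3.55e-04 by edgeR's quasi-likelihood test).

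Over the 9 members, 7 were called lower and 0 higher in cycling cells, where 28.5% of 11749 genes were lower and 26.4% higher. The called members included the other broad receptors. Cd27 measured 172 against 519 CPM in WT, 168 against 418 CPM in the preleukemic mouse, 164 against 405 CPM in T-ALL#1 and 93.0 against 175 CPM in T-ALL#2 (log2 difference -1.10, adjusted p = 5.48e-04). Cd28 measured 140 against 416 CPM in WT, 95.2 against 169 CPM in the preleukemic mouse, 103 against 222 CPM in T-ALL#1 and 62.3 against 116 CPM in T-ALL#2 (log2 difference -0.92, adjusted p = 0.00167). In each library these 2 receptors were lower in the cycling cells, and cycling Cd27 levels of WT, the preleukemic mouse and T-ALL#1 lay within 164 to 172 CPM.

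The rarer members were called on fewer UMIs. Tnfrsf18 measured 27.0 against 98.5 CPM in WT, 15.1 against 36.5 CPM in the preleukemic mouse, 9.27 against 22.3 CPM in T-ALL#1 and 15.3 against 19.2 CPM in T-ALL#2, lower in each. The log2 differences were -1.91 for Lta, -1.48 for Tnfrsf4, -2.31 for Tnfrsf9 and -1.01 for Tnfrsf18, with adjusted p-values from 9.38e-04 to 0.00695. Tnfrsf9 rested on 11 and 12 UMIs in the leukemias. Tnf (log2 difference -0.20, adjusted p = 0.424) and Ctla4 (0.08, adjusted p = 0.881) did not pass. Ctla4 was 5.11 against 13.9 CPM in WT and 18.2 against 7.65 CPM in the preleukemic mouse, opposite directions in the 2 animals, with 5.30 against 5.93 CPM and 2.94 against 3.71 CPM in the leukemias. Without the WT library 6 members were called lower, and without the preleukemic library 6.

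Within classes set by Cd4, Cd8a and Il2ra, Ltb, Cd27 and Cd28 were each lower in cycling cells beyond the counting interval in 17 of 17 class-by-library groups, by 1.18-fold to 8.79-fold for Ltb. The scale changed what could be said of the others. Cycling cells held more UMIs in all, with median depths of 10865 against 3458 in WT, and counted as UMIs per cell 2 members were called lower, Ltb (log2 difference -0.76, adjusted p = 0.00101) and Tnfrsf9 (-1.12, adjusted p = 0.00838). On that scale Cd27 (0.092), Tnfrsf18 (0.19) and Cd28 (0.28) were not called and pointed the other way, and Tnf (1.00) and Ctla4 (1.26) were called higher, beside a median of 1.14 over all genes. Of the 11749 genes tested per cell, 9540 were called higher and 194 lower. This scale was added after seeing the data. Summed markers of NK cells (17.3 against 96.7 CPM in WT, 16.9 against 103 CPM in the preleukemic mouse, 0.766 against 22.5 CPM in T-ALL#1 and 0.280 against 3.31 CPM in T-ALL#2) and of regulatory T cells (108 against 376, 447 against 1156, 278 against 526 and 187 against 405 CPM) were also lower in cycling cells. So were those of B cells (6.38 against 13.5, 4.52 against 25.6, 0.621 against 14.5 and 1.17 against 8.85 CPM) and of myeloid cells (35.3 against 91.7, 4.68 against 15.03, 4.30 against 13.6 and 4.62 against 21.7 CPM). The regulatory T list includes Ikzf2, at 180, 820, 339 and 268 CPM in whole libraries, where Foxp3 was at 5.03, 0.636, 0.0565 and 0.0552 CPM. Its sum therefore does not measure the share of regulatory T cells. Markers of gamma delta T cells were higher in cycling cells of WT (430 against 118 CPM) and lower in the others (1123 against 1693, 30.7 against 56.7 and 126 against 186 CPM). Without Foxp3-detected cells 7 members were called lower, as without B-like and myeloid-like cells, and the part of NK and gamma delta T cells was not tested.

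**Figure D4:**
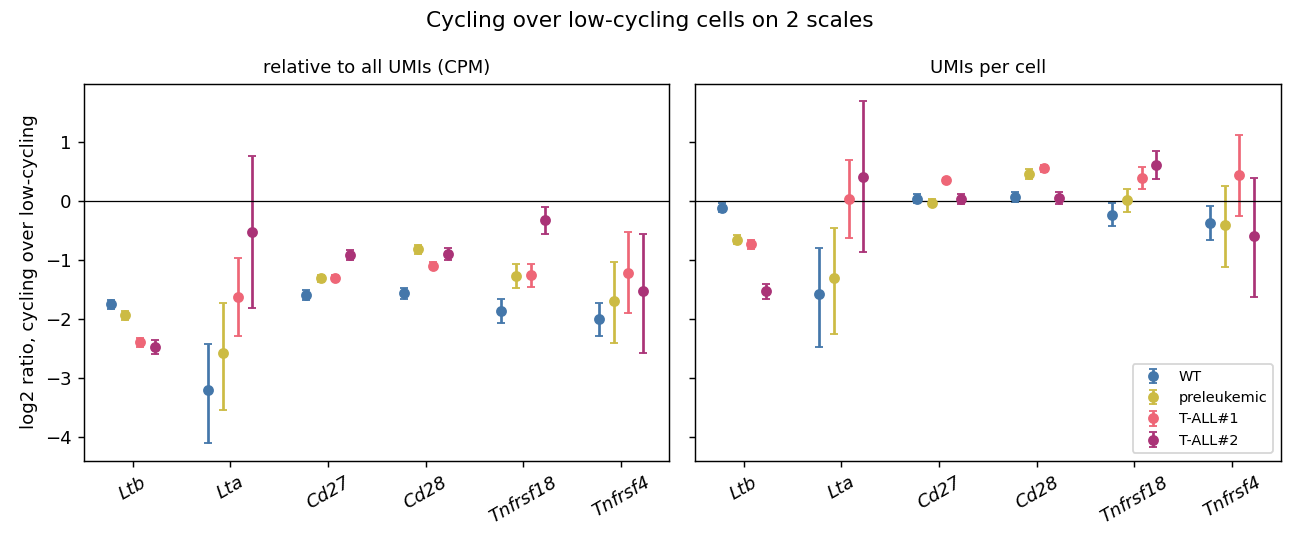
Log2 ratio of cycling over low-cycling cells in each library for 6 of the 9 genes, relative to all UMIs (left) and as UMIs per cell (right), with exact 95% intervals. All ratios on the left lie below 0, and on the right Ltb alone lies below 0 beyond its interval in all 4 libraries.

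Other genes of these pathways were also called in cycling cells. Of 24 signalling genes tested, 13 were lower and 2 higher, with Nfkbia (log2 difference -0.88) and Ikbkb (-0.61), a kinase of NF-κB activation, among the lower and Siva1 (2.25), a proapoptotic partner of Cd27, higher. The list median was -0.48, beside -0.05 over all genes. Of 15 other TNF receptors, 8 were lower, among them Tnfrsf13b (-0.92), Fas (-1.17) and Tnfrsf1a (-0.66), and 1, Tnfrsf8, was higher. Of 6 genes of the CD28 family and its ligands, 3 were lower, Icos (-1.80), Cd274 (-1.23) and Pdcd1lg2 (-1.11), and of 5 other ligands 2 were, Tnfsf8 (-1.53) and Tnfsf14 (-1.94). Ikzf2 was lower as well (-1.10).

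Low-cycling and cycling cells were also compared within DN3-gated thymocytes (no UMI of Cd4, Cd8a or Cd44, and Il2ra above 0.5 on the scale of the natural log of 1 plus UMIs per 10000) of the 2 leukemias, cells that overlap those above. The study divided such cells by clustering into a dormant and a proliferative state, whereas here they were split by the list of cell-cycle genes. Ltb measured 196 CPM in low-cycling against 30.03 CPM in cycling DN3 cells of T-ALL#1, and 127 against 17.8 CPM in T-ALL#2. The preleukemic library, outside the fit, had 306 against 54.5 CPM, and WT had 71 UMIs in 35 cells (207 CPM) against 2 UMIs in 10 cells. Low-cycling DN3 cells thus held more Ltb in each library, and in the 2 leukemias the log2 difference was 2.67 (SE 0.307, adjusted p = 1.06e-15 by edgeR's quasi-likelihood test). This p-value rests on 2 animals with no library block and on 1 trend of dispersion, from which single genes did not depart in the fit. With the filter of edgeR on low counts, where they did, the adjusted p was 0.0355.

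Cd27 (385 against 159 CPM in T-ALL#1 and 161 against 89.0 CPM in T-ALL#2, log2 difference 1.01, adjusted p = 0.0250) and Cd28 (200.3 against 95.1 CPM and 113 against 61.0 CPM, 0.90, adjusted p = 0.0421) were also called higher. These were 3 of 9 members, where 1.93% of 14633 genes were called higher, and 0 were lower, where 3.62% were. With the replicate block, Tnfrsf18 was called as well (log2 difference 0.77, adjusted p = 0.0346). The calls of Cd27 and Cd28 were lost by DESeq2, after thinning (log2 differences 0.75 and 0.87), under the low-count filter (1.08 and 0.96) and per cell (-0.078 and -0.15), whereas Ltb had a difference of 1.63 per cell (adjusted p = 0.00459). Of 24 signalling genes 3 were called higher, among them the NF-κB feedback inhibitors Tnfaip3 (1.29) and Nfkbia (1.28), and 1, Siva1 (-1.40), lower. Tnfsf8 (1.57) of 7 other ligands was higher, as was Ikzf2 (1.12), and 0 of 18 other receptors were called.

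S1pr1, the receptor that directs mature thymocytes to leave the thymus, was detected in 470 WT cells (11.1%), 226 preleukemic cells (4.05%), 122 cells of T-ALL#1 (2.11%) and 52 cells of T-ALL#2 (2.63%). Ltb measured 872 CPM in S1pr1-detected against 366 CPM in other cells of WT, 591 against 228 CPM in the preleukemic mouse, 371 against 91.2 CPM in T-ALL#1 and 281 against 82.7 CPM in T-ALL#2. The ratios were 2.38, 2.60, 4.07 and 3.40, with S1pr1-detected cells higher in 4 of 4 libraries. The log2 difference was 1.60 (SE 0.124, adjusted p = 6.29e-07 by edgeR's quasi-likelihood test). Per cell, Ltb was higher by 2.20-fold to 3.21-fold.

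Over the 9 members, 5 were called higher in S1pr1-detected cells and 0 lower, where 8.75% of 11411 genes were higher and 11.4% lower. Tnfrsf18 measured 135 against 59.7 CPM in WT, 46.6 against 26.1 CPM in the preleukemic mouse, 46.3 against 12.9 CPM in T-ALL#1 and 18.1 against 16.9 CPM in T-ALL#2, so that T-ALL#2 alone showed no separation. Its log2 difference was 1.11 (adjusted p = 0.00510), beside Tnfrsf4 (1.23, adjusted p = 0.00800), Lta (1.31, adjusted p = 0.0318) and Tnfrsf9 (1.63, adjusted p = 0.0348). S1pr1-detected cells of both leukemias had 0 UMIs of Tnfrsf9 (upper 95% limits of 3.63 and 5.14 CPM), so that this call rested on WT (25.01 against 14.9 CPM) and the preleukemic mouse (10.6 against 1.065 CPM). The call of Tnfrsf4 rested on WT (79.9 against 30.1 CPM). Without WT its log2 difference was 0.43 (adjusted p = 0.760), and without Foxp3-detected cells its adjusted p was 0.0539 and that of Tnfrsf9 0.273, leaving 3 called members. Lta passed in 7 of 13 alternatives and Tnfrsf9 in 4 of 10. Lta had an adjusted p of 0.0992 without WT and 0.337 without the preleukemic library, and DESeq2 called only Ltb and Tnfrsf18.

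Cd27 and Cd28 went different ways in different libraries. Cd27 was 354 against 389 CPM in WT, 337 against 305 CPM in the preleukemic mouse, 412 against 238 CPM in T-ALL#1 and 209 against 125 CPM in T-ALL#2. Cd28 was 272 against 314 CPM in WT, 158 against 135 CPM in the preleukemic mouse, 239 against 139 CPM in T-ALL#1 and 153 against 82.8 CPM in T-ALL#2. Both were lower in S1pr1-detected cells of WT and higher in those of the 3 transgenic libraries, and neither passed over the 4 libraries (log2 differences 0.38 and 0.41, adjusted p = 0.0544 and 0.0577). Among low-cycling cells the preleukemic mouse also had the lower value in S1pr1-detected cells, with Cd27 at 361 against 421 CPM beyond the interval and Cd28 at 162 against 169 CPM within it. Without the WT library both were called higher (0.48, adjusted p = 0.00171, and 0.55, adjusted p = 5.63e-04). Ctla4 (1.05, adjusted p = 0.212) and Tnf (0.02, adjusted p = 0.984) did not pass.

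The difference in Ltb was also present within cycling and stage classes. Among low-cycling cells Ltb was 1.81-fold to 2.08-fold higher in S1pr1-detected cells in 4 of 4 libraries, and it was higher beyond the counting interval in 10 of 10 class-by-library groups. Markers of B cells, in which Ltb was abundant, moved with S1pr1 in 2 libraries. Their summed level was 77.7 against 13.9 CPM in the preleukemic mouse and 85.6 against 3.86 CPM in T-ALL#1, with all 4 markers detected, but 5.17 against 11.7 CPM in WT, where Ms4a1 was at 0, and 1.39 against 4.36 CPM in T-ALL#2. The 12 cells of T-ALL#1 with at least 2 of 4 B-cell markers held 1930 CPM of Ltb. Without the B-like and myeloid-like cells, the log2 difference of Ltb was 1.59 (adjusted p = 5.10e-07). NK markers were also higher in S1pr1-detected cells of each library (141 against 52.9 CPM in WT, 239 against 57.8 CPM in the preleukemic mouse, 77.8 against 6.63 CPM in T-ALL#1 and 4.18 against 1.46 CPM in T-ALL#2), and their part was not tested.

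Among the pathway lists, 11 of 24 signalling genes were called higher in S1pr1-detected cells and 1, Siva1, lower. Siva1 had a log2 difference of -1.28, and Ikbkb (0.56) and Nfkb1 (0.54), an NF-κB subunit, were among the higher. Of 14 other TNF receptors, 5 were higher, among them Tnfrsf13b (0.46) and Tnfrsf26 (0.92), and 1, Tnfrsf8 (-2.28), was lower. Of 7 other ligands Tnfsf8 (1.79) and Fasl (2.32), a cytotoxic effector also made by NK cells, were higher, and Ikzf2 had a log2 difference of 0.86 (adjusted p = 0.00422). Icos (1.46), Btla (1.25) and Cd274 (0.95) were higher among 5 genes of the CD28 family. The medians of the signalling and receptor lists were 0.50 and 0.56, beside -0.03 over all genes.

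**Figure D5:**
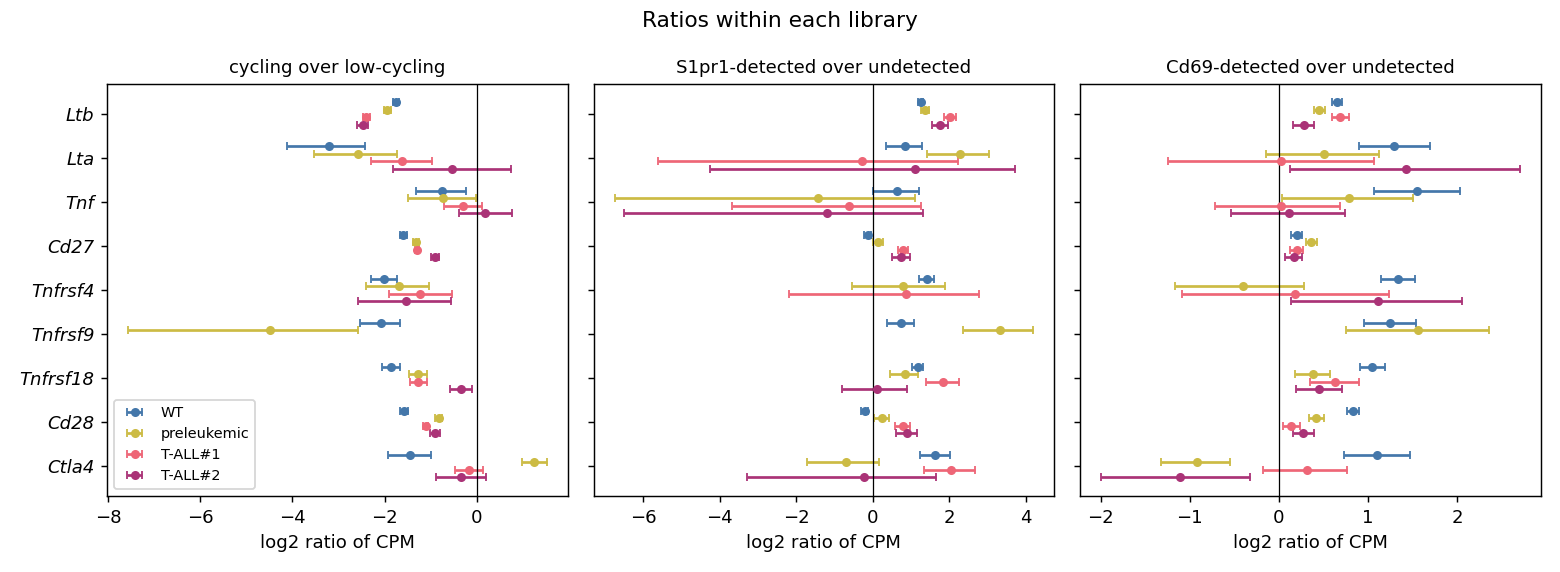
Log2 ratio of CPM within each library for cycling over low-cycling cells, S1pr1-detected over other cells and Cd69-detected over other cells, with exact 95% intervals, where the 2 classes held at least 20 UMIs and neither was at 0. Ltb lies left of 0 in the first panel and right of 0 in the others for all 4 libraries, while Ctla4 lies on both sides.

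Cd69, a marker of recent T-cell receptor signals, gave smaller differences. Ltb measured 597 CPM in Cd69-detected against 379 CPM in other cells of WT, 304 against 222 CPM in the preleukemic mouse, 145 against 90.0 CPM in T-ALL#1 and 99.95 against 82.4 CPM in T-ALL#2. Cd69-detected cells were higher in 4 of 4 libraries, by 1.21-fold to 1.62-fold (log2 difference 0.52, SE 0.0765, adjusted p = 0.0117 by edgeR's quasi-likelihood test). Cd27 measured 423 against 368 CPM in WT, 370 against 287 CPM in the preleukemic mouse, 273 against 237 CPM in T-ALL#1 and 138 against 123 CPM in T-ALL#2 (0.24, adjusted p = 0.0394). Tnfrsf18 (0.65, adjusted p = 0.0394), at 113 against 54.4 CPM in WT and 32.8 against 25.2 CPM in the preleukemic mouse, and Tnfrsf9 (1.18, adjusted p = 0.0410) were also called higher. Tnfrsf9 was 28.1 against 11.9 CPM in WT and 2.88 against 0.974 CPM in the preleukemic mouse, with 1 and 2 UMIs in the Cd69-detected cells of the leukemias. These were 4 of 9 members, where 1.96% of 11532 genes were called higher, and 0 were lower, where 0.876% were. Cd28 was not called, although it was higher beyond the interval in 4 of 4 libraries, with ratios of 1.10 to 1.79. Lta (ratios of 1.01 to 2.69) and Tnfrsf4 (0.755 to 2.54) were higher beyond the interval in 2 libraries each and were not called.

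These calls depended on single libraries. Without the preleukemic mouse 0 members passed, without T-ALL#1 or without T-ALL#2 2 passed, and without WT 4 passed. Over all genes, 14, 117, 318 and 248 were called higher in these settings, against 226 with all libraries. Over the alternatives the log2 differences ran from 0.457 to 0.724 (Ltb), 0.200 to 0.438 (Cd27), 0.453 to 0.846 (Tnfrsf18) and 1.01 to 1.34 (Tnfrsf9). B-cell markers were higher in Cd69-detected cells of 3 libraries (30.1 against 12.2 CPM in the preleukemic mouse, 30.3 against 2.45 CPM in T-ALL#1 and 9.69 against 2.61 CPM in T-ALL#2, but 7.33 against 12.04 CPM in WT), and without B-like and myeloid-like cells 4 members passed. NK markers were higher in all 4 (97.4 against 53.5, 111 against 50.6, 38.2 against 4.52 and 4.62 against 0.544 CPM), and their part was not tested. Among low-cycling cells Ltb was higher beyond the interval in 3 of 4 libraries, by 1.04-fold to 1.54-fold over the 4. Tnf was at 11.8 against 4.03 CPM in WT and 2.77 against 1.60 CPM in the preleukemic mouse, but 3.04 against 2.99 CPM in T-ALL#1 and 3.35 against 3.08 CPM in T-ALL#2, and did not pass (adjusted p = 0.205). Ctla4 was 17.1 against 7.95 CPM in WT, 7.31 against 13.9 CPM in the preleukemic mouse, 6.69 against 5.38 CPM in T-ALL#1 and 1.73 against 3.74 CPM in T-ALL#2. Detected cells were thus higher in WT and T-ALL#1 and lower in the preleukemic mouse and T-ALL#2. In the lists, Relb (0.98) and Tnfaip3 (0.43) of 24 signalling genes, and Pdcd1 (1.12) and Cd274 (0.99) of 5 genes of the CD28 family, were called higher, and 0 of 15 other TNF receptors and 0 of 6 other ligands were called.

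The genes whose levels were most like those of the 3 broad members were found over 20 library-by-class sums, among 2925 genes with a mean of at least 50 CPM, by Pearson's r of log2(CPM + 1). For Ltb these were Dusp2 (0.962), a phosphatase of MAP kinases, Cd52 (0.956), a surface glycoprotein of lymphocytes, and Jak1 (0.953), a cytokine receptor kinase. For Cd27 they were Itpkb (0.971), Ccm2 (0.958) and Dnajc1 (0.948), and for Cd28 they were Rapgef6 (0.955), Slfn2 (0.942) and Cotl1 (0.932). The sums of a library share 1 animal and 1 depth, so these values are descriptions without a test.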

How the data were processed

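The deposited matrices hold UMI counts per gene and barcode, made by the authors with Cell Ranger (3.0.2, and 4 for T-ALL#2, per the file headers; mm10 per the submitters' notes), with no normalization. The matrix of T-ALL#2 held every barcode, and cells of at least 3416 UMIs were taken there. Cells with more than 500 genes and under 10% mitochondrial UMIs were kept. UMIs were summed per library and class and tested over all genes with edgeR 4.0.16 (TMM, filterByExpr, robust quasi-likelihood fit, library as a block; for DN3 cells, every gene with a UMI, as in the study, and no block), with Benjamini-Hochberg adjustment at 0.05. Scripts were tested on simulated data. Both sums of a library come from 1 animal, which pairs them. In the DN3 sums, the difference between the 2 leukemias had an r of 0.750 between low-cycling and cycling cells over 3821 genes. Each library is 1 mouse, so p-values of the tests with a library block measure the spread over 4 mice of 3 conditions. Those of the DN3 test rest on the 2 leukemias and on a trend of dispersion over genes. Doublets were not called. All 9 members were described, with up to 3 called genes of highest CPM from each list and the 3 genes most like Ltb, Cd27 and Cd28, and other pathway genes named were chosen after their values were seen. Members and lists were chosen with earlier results of these data known. Alternatives were DESeq2, other scalings and filters, thinning to 2000 UMIs, and leaving out libraries or cells.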

Additional observations from a re-analysis of the deposited data

Results flagged for a closer look

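Within-library ratios of 3 genes went opposite ways in different groups, beyond the counting interval of each library named. These differences between groups were not tested, since WT and the preleukemic group hold 1 library each. The log2 ratio of Ctla4 for Cd69-detected over other cells was 1.10 in WT and -0.92 in the preleukemic mouse, that for cycling over low-cycling cells was -1.45 and 1.25, and that for low-cycling over cycling DN3 cells was 2.79 and -0.80. These intervals treat UMIs as independent, whereas 43 WT cells held 72.2% of Ctla4 UMIs. As raw shares of cells, WT intervals overlapped for Cd69 (3.14% against 2.40%) and cycling (2.75% against 2.55%). Preleukemic shares stayed apart (3.41% against 5.52%, and 11.9% against 2.76%). The WT cycling DN3 class held 4 UMIs in 10 cells. Preleukemic DN3 shares after thinning were 3.95% in low-cycling and 3.92% in cycling cells. For S1pr1-detected over other cells, Cd27 had log2 ratios of -0.13 in WT, 0.15 in the preleukemic mouse, 0.79 in T-ALL#1 and 0.74 in T-ALL#2. Cd28 had -0.21, 0.23, 0.78 and 0.89 in the same order. Among low-cycling cells the preleukemic values were below those of S1pr1-undetected cells as well.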

How the results depend on the processing

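Of the counts of members under alternatives, 145 stayed within 1.5 times the value reported and 29 did not. Of the values of single genes, 541 stayed the same. Tested values among them kept their direction and side of the threshold, and untested ratios stayed within the counting interval. Another 117 untested ratios moved beyond that interval, 22 values newly passed, 48 no longer passed and 30 changed sign. Ratios of less than 2-fold that changed direction, as for Ctla4 in the preleukemic mouse over WT, were counted as moved. The causes were not tested. Against the preleukemic library, 3 members, rather than 6, were 2-fold lower in each leukemia with cells weighted equally, with TMM factors and with thinning to 2000 UMIs. Members 2-fold higher numbered 1 in T-ALL#1 (equal weighting, thinning) and 1 in T-ALL#2 (TMM), against 0, and the ratio of Tnfrsf9 in T-ALL#2 was 1.18 after thinning.

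Between DN Il2ra+ and DP cells, DESeq2 called 3 members lower, and UMIs per cell 2 higher. The per-cell scale called 4553 of all 10400 genes higher there. Per cell, the log2 differences of Tnf and Cd27 were 0.36 and 0.068. That of Tnfrsf18 was -0.021 without Foxp3-detected cells, and that of Lta ran from -0.068 (without T-ALL#2) to 0.41 with 1 library left out. For Cd69, members called higher numbered 7 per cell, 2 with an upper limit on genes per cell, 0 without the replicate block, and 0 to 4 with 1 library left out. The per-cell scale called 2805 of all 11532 genes higher. Ctla4 had log2 differences of 0.16 per cell, 0.052 without the block, and -0.56 to 0.36 with 1 library left out (0.14 without T-ALL#2). For S1pr1, members called higher numbered 2 by DESeq2, 3 with the upper limit, 3 after thinning, 3 without Foxp3-detected cells and 0 without the replicate block. Tnf had log2 differences of -0.20 (DESeq2), -0.12 (per cell), -0.057 (upper limit) and -0.0043 (Foxp3-detected cells left out), and -1.08 (without WT) to 0.21 with 1 library left out.

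For cycling, 2 members were called higher and 2 lower per cell, beside 9540 and 194 of 11749 genes, and 1 lower without the replicate block. Per cell, the log2 differences were 1.00 for Tnf, 0.092 for Cd27, 0.19 for Tnfrsf18 and 0.28 for Cd28, and those of Ctla4 were -0.013 by DESeq2, -0.11 with the upper limit, and -0.47 (without the preleukemic library) to 0.51 with 1 library left out. Within DN3 cells, 1 member, rather than 3, was called higher by DESeq2, per cell, after thinning and with the low-count filter of edgeR. Over all genes these settings called 53, 18, 51 and 1 higher, against 283 in the main fit. Per cell, the values were -0.078 for Cd27, -0.24 for Tnfrsf4, -0.22 for Tnfrsf18, -0.15 for Cd28 and -0.39 for Ctla4. After thinning, Lta had -0.89 and Tnf 1.22, Tnfrsf4 had -0.062 without Foxp3-detected cells, and Ctla4 had -0.32 with the preleukemic library added under the replicate block. With the replicate block on the 2 leukemias, 4 members were called higher (Tnfrsf18 added), and no other call of a member changed. The DN3 fit was not rerun with a library left out, since 1 animal would remain. Ratios of the single remaining leukemia were counted, by direction alone and untested, among the values of single genes that stayed the same.

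Whole libraries of 1 animal for WT and the preleukemic group limit every comparison between groups to counting error. Without the library block, 0 genes of all tested passed in the stage, Cd69 and S1pr1 comparisons, with 1114, 40 and 1334 genes at an unadjusted p under 0.05. Lta, Tnf and Tnfrsf9 rest on few UMIs in the leukemias. The per-cell scale and the sets without Foxp3-detected or B-like and myeloid-like cells were chosen after seeing the data.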
